A study of Homo sapiens with 12 samples.

Results

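The 9 genes described here encode the receptor chains IL17RA, IL17RC and IL17RD, the adaptor Act1 (gene TRAF3IP2) and the TRAF proteins TRAF6, TRAF2, TRAF5, TRAF3 and TRAF4. They were taken by Ensembl identifier from a given list of the IL-17 receptor pathway, and are 9 of the 60708 features in the deposited tables. The rule that picked them used no values, but they were chosen with earlier results of these data known. All 9 passed the filter on low counts, which left 24040 features for testing. RNA immunoprecipitation followed by sequencing (RIP-seq) was carried out in the HK2 cell line, derived from human kidney epithelium, to find transcripts bound by the RNA-binding protein Arid5a.

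Every group, the IgG controls included, received 10 µg of plasmid encoding FLAG-tagged human Arid5a, so no group was untransfected. The FLAG IL-17 and IgG IL-17 groups were stimulated with 200 ng/mL of IL-17 for 3 h, and their lysates were precipitated with anti-FLAG antibody or with mouse IgG1, the control for background. The FLAG medium and IgG medium groups spent the same 3 h in medium alone and were precipitated in the same 2 ways. Each group held 3 libraries, prepared from the precipitated RNA by SMART-Seq v4 chemistry for small amounts of RNA. The labels name no input libraries, and they do not say whether replicates were separate cultures. Extraction used either TRIzol or acid phenol, which the labels do not assign to libraries, so its part in any difference was not tested. The p-values therefore reflect the spread of these libraries only, and that spread may be technical. The deposited tables carry identifiers without symbols, and the symbols of the 9 genes came from the given list. For that reason the level of the transfected gene and the epithelial markers of the line are not analysed here.

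As background, IL-17A binds a receptor made of IL-17RA and IL-17RC, whose cytoplasmic SEFIR domains recruit Act1, an adaptor that carries the same domain and acts as a ubiquitin ligase. Act1 passes the signal to TRAF6, which leads to NF-κB and MAP kinase activation, and to TRAF2 and TRAF5, which take part in the stabilisation of inflammatory mRNAs. TRAF3 and TRAF4 are known as brakes, TRAF3 by binding the receptor and TRAF4 by competing with TRAF6 for Act1. IL-17RD, also called Sef, was first described as an inhibitor of fibroblast growth factor signalling and can associate with IL-17RA. In kidney epithelium the pathway drives chemokine and antimicrobial gene expression. Arid5a is known for stabilising inflammatory mRNAs, Il6 in the mouse among them.

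On GRCh38.p14, the build of the RefSeq table, IL17RA (ENSG00000177663.14) lay at chr22:17085000-17115693. IL17RC (ENSG00000163702.20) and IL17RD (ENSG00000144730.19) lay on chromosome 3, at chr3:9917098-9933621 and chr3:57089982-57170317. TRAF3IP2 (ENSG00000056972.20) lay at chr6:111555381-111605878. It shared 46915 bp with the antisense gene TRAF3IP2-AS1. No source used here says whether counting was strand-aware, so reads of TRAF3IP2 and of its antisense partner could not be told apart. TRAF6 (ENSG00000175104.15) lay at chr11:36483769-36510272, TRAF2 (ENSG00000127191.18) at chr9:136881958-136926607 and TRAF5 (ENSG00000082512.15) at chr1:211326635-211374946. TRAF3 (ENSG00000131323.16) lay at chr14:102777449-102911500 and TRAF4 (ENSG00000076604.15) at chr17:28744011-28750956. The annotation placed no other gene over TRAF6, TRAF5 or TRAF4. A long noncoding RNA gene overlapped IL17RD by 5589 bp and another overlapped TRAF2 by 1475 bp.

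Depth differed widely between libraries. Total estimated counts ranged from 13653406 to 17723136 in FLAG IL-17, from 5365495 to 15837845 in IgG IL-17, from 2402395 to 7563477 in FLAG medium and from 746911 to 6118339 in IgG medium. A count of 0 allows up to 4.02 CPM (counts scaled to library size) in IgG medium replicate 1, the shallowest library. In the deepest it allows up to 0.169 CPM. Both limits use a floor of 3 counts and cover counting error only. IgG medium replicate 1 held 10609 detected features, against 14419 to 42600 in the other 11 libraries. Factors of the trimmed mean of M values (TMM), which correct for RNA composition, ran from 0.614 in FLAG IL-17 replicate 3 to 1.55 in IgG IL-17 replicate 1. Earlier results of these data had set 4 libraries apart from the rest, namely IgG IL-17 replicate 1, FLAG medium replicate 1 and IgG medium replicates 1 and 2. Calls made with all 4 left out are given beside those from 12 libraries.

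None of the 9 transcripts was called as enriched with Arid5a or as changed by IL-17 in any of the 5 comparisons made in 1 model of all 12 libraries. Between antibodies, IL17RC was higher in all 3 FLAG IL-17 libraries than in all 3 IgG IL-17 libraries on CPM with and without TMM factors. The same held for 14.6% and 3.58% of all features. On the length-corrected TPM it did not hold for IL17RC. TRAF3IP2, TRAF6, TRAF2 and TRAF4 were higher in all 3 FLAG IL-17 libraries than in all 3 FLAG medium libraries on the TMM scale, beside 17.3% of all features. For these 4 genes that order was lost on the other scales used. Each of these patterns is given with the share of all features that showed the same. In RNA precipitated from bulk lysates, less RNA of a gene per cell and fewer cells contributing it cannot be told apart.

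**Figure D1:**
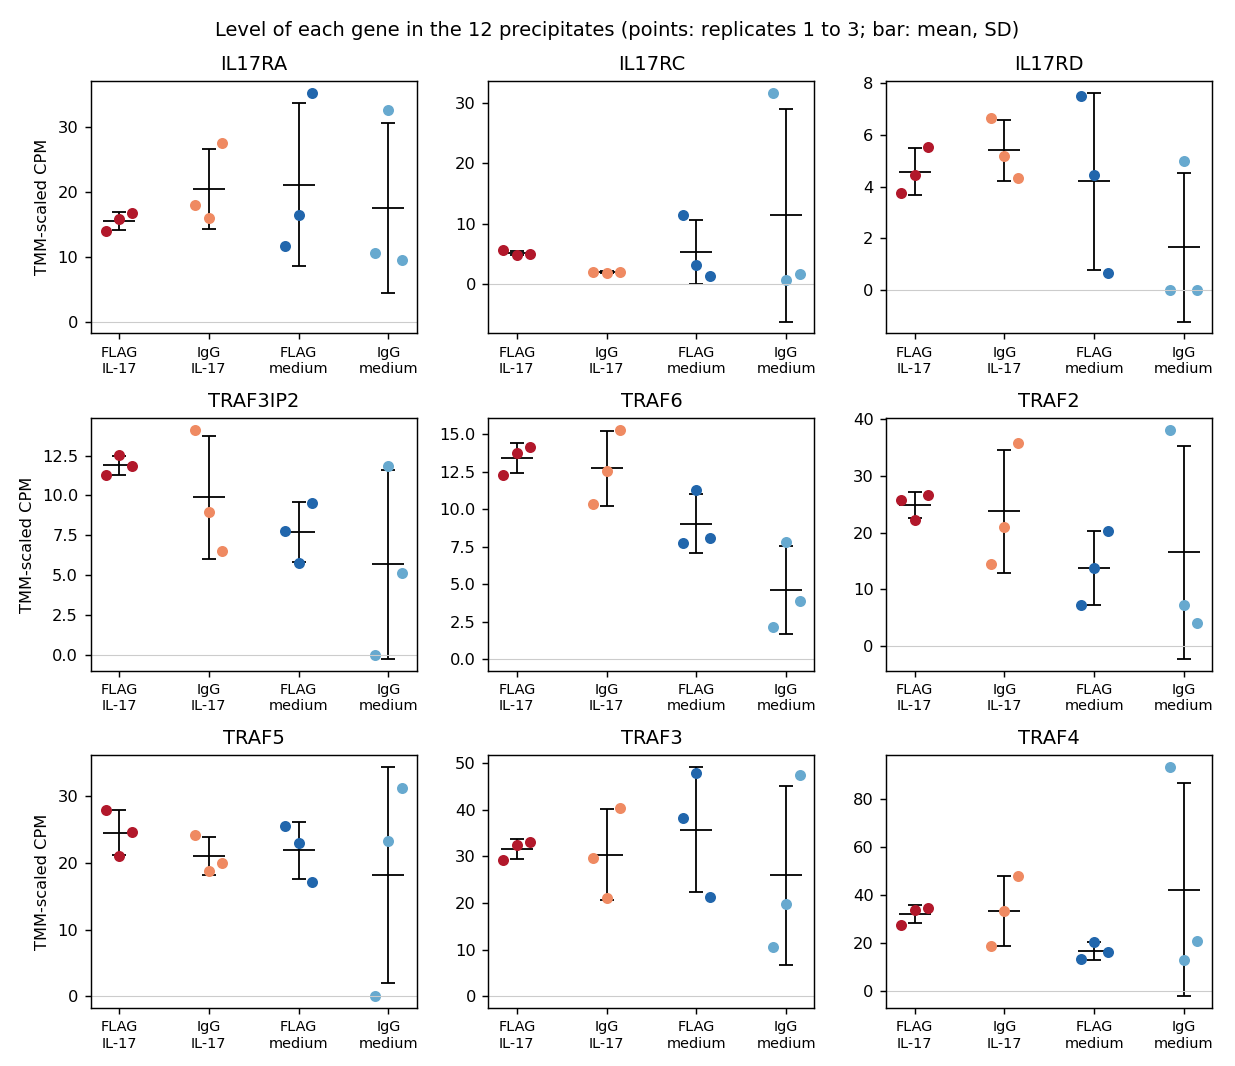
TMM-scaled CPM of the 9 genes on a linear axis, 1 panel per gene, with a point for each of the 3 libraries per group (FLAG IL-17, IgG IL-17, FLAG medium, IgG medium, left to right) and bars for the group mean ± SD. FLAG IL-17 libraries lie close together for every gene, while IgG medium runs from 12.6 to 93.3 for TRAF4 and holds libraries at 0 for IL17RD, TRAF3IP2 and TRAF5.

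The levels of the receptor chains were read as TMM-scaled CPM. Here counts were scaled to the library total of the features that passed the filter, multiplied by the TMM factor. The scale is not corrected for gene length. IL17RA, the chain shared by receptors of several IL-17 cytokines, had 14.1, 15.8 and 16.7 in FLAG IL-17, against 17.9, 16.004 and 27.5 in IgG IL-17. It had 11.6, 16.4 and 35.3 in FLAG medium, against 10.6, 32.7 and 9.48 in IgG medium. The groups overlapped in every comparison on this scale, and the highest libraries, FLAG medium replicate 3 and IgG medium replicate 2, were both from cells without IL-17. IL17RA was called in none of the comparisons by edgeR, with a log2 fold change of FLAG over IgG of -0.40 ± 0.63 (SE) with IL-17 and 0.21 ± 0.64 in medium. The log2 fold change of IL-17 over medium was -0.45 ± 0.63 in FLAG.

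IL17RC, the chain that pairs with IL17RA to bind IL-17A and IL-17F, had 5.52, 4.79 and 4.99 TMM-scaled CPM in FLAG IL-17, against 1.97, 1.73 and 1.99 in IgG IL-17. Those values came from 100, 55 and 54 counts in FLAG IL-17 and 16, 16 and 22 counts in IgG IL-17. Every FLAG IL-17 library was above every IgG IL-17 library, with means of 5.10 ± 0.376 and 1.90 ± 0.144 (SD, n = 3 each). FLAG IL-17 was likewise higher without overlap for 14.6% of all features. Without the TMM factor the order still held, as for 3.58% of all features, but narrowly. The lowest FLAG IL-17 library was at 3.06 CPM and the highest IgG IL-17 library at 2.98 CPM. On TPM, the scale that corrects for transcript length, the groups overlapped, at 0.39, 0.34 and 0.15 in FLAG IL-17 and 0.42, 0.12 and 0.14 in IgG IL-17.

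In medium IL17RC had 11.4, 3.17 and 1.31 TMM-scaled CPM in FLAG medium, against 31.8, 0.679 and 1.54 in IgG medium. The high value of IgG medium replicate 1 rested on 15 counts, 20.1 CPM with a 95% Poisson interval of 11.2 to 33.1, while replicates 2 and 3 had 6 counts each. FLAG medium replicate 1 was likewise the highest of its group, at 41 counts. The direction of the medium comparison turned with IgG medium replicate 1: the log2 fold change of FLAG over IgG was -0.97 ± 1.34 with all libraries and 2.10 without it.

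IL17RD had 3.75, 4.44 and 5.54 TMM-scaled CPM in FLAG IL-17, against 6.64, 5.19 and 4.34 in IgG IL-17. It had 7.48, 4.46 and 0.657 in FLAG medium, and in IgG medium it was at 0 in replicates 1 and 3 and at 4.98 in replicate 2. The 44 counts of IgG medium replicate 2 were the only ones of that group, and the counts of 0 allow up to 4.02 CPM in replicate 1 and 0.789 CPM in replicate 3. The groups overlapped throughout, and the log2 fold change of FLAG over IgG was -0.24 ± 1.40 with IL-17 and 1.08 ± 1.46 in medium, not called by edgeR. Without IgG medium replicate 2, which was at 7.19 CPM, the IgG medium group held 0 counts. The pooled FLAG medium level of 4.67 CPM was 7.08 times 0.659 CPM, the limit of 3 counts over the 2 libraries left. FLAG medium replicate 3 alone, with 4 counts and 0.633 CPM, was below that limit, so the fold holds for the pooled level only.

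Act1, encoded by TRAF3IP2, links the receptor to the TRAF proteins. TRAF3IP2 had 11.3, 12.5 and 11.8 TMM-scaled CPM in FLAG IL-17, against 14.1, 8.98 and 6.51 in IgG IL-17. It had 7.76, 5.75 and 9.53 in FLAG medium, and in IgG medium 0, 11.9 and 5.13. Every FLAG IL-17 library was thus above every FLAG medium library on this scale, as for 17.3% of all features. FLAG and IgG overlapped both with IL-17 and in medium. The log2 fold change of IL-17 over medium in FLAG was 0.63 ± 0.89, and that of FLAG over IgG was 0.27 ± 0.89 with IL-17 and 0.26 ± 0.91 in medium, none of them called by edgeR.

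TRAF6 is the ubiquitin ligase that acts next after Act1 on the way to NF-κB. It had 12.2, 13.8 and 14.1 TMM-scaled CPM in FLAG IL-17, against 10.3, 12.5 and 15.3 in IgG IL-17. It had 7.76, 11.3 and 8.05 in FLAG medium, against 2.12, 7.81 and 3.84 in IgG medium. The 3 libraries with IL-17 were above the 3 in medium for each antibody on this scale. The same held for 17.3% of all features in FLAG and 9.69% in IgG. IgG medium replicate 1 held 1 count of TRAF6. Between antibodies the groups overlapped, by less than 0.1 CPM in medium, where the lowest FLAG library had 7.76 and the highest IgG library 7.81. The log2 fold change of IL-17 over medium was 0.56 ± 0.77 in FLAG and 1.34 ± 0.80 in IgG (edgeR, n = 3 each, adjusted p = 0.957 in IgG).

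TRAF2 and TRAF5 act beside Act1 in the control of mRNA stability. TRAF2 had 25.7, 22.3 and 26.6 TMM-scaled CPM in FLAG IL-17, against 14.5, 21.0 and 35.7 in IgG IL-17. It had 7.21, 13.8 and 20.2 in FLAG medium, against 38.2, 7.24 and 4.10 in IgG medium. FLAG IL-17 lay above FLAG medium in every library on this scale, as for 17.3% of all features. IgG medium again held its highest value in replicate 1, from 18 counts. The log2 fold change of IL-17 over medium in FLAG was 0.85 ± 0.69. That of FLAG over IgG in medium was -0.03 ± 0.74 with all libraries and 1.26 without IgG medium replicate 1. Neither was called by edgeR.

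TRAF5 had 27.9, 21.1 and 24.7 TMM-scaled CPM in FLAG IL-17, against 24.2, 18.8 and 19.9 in IgG IL-17. It had 25.5, 23.0 and 17.1 in FLAG medium, and in IgG medium 0, 23.2 and 31.3. Apart from the count of 0 in IgG medium replicate 1, which allows up to 4.02 CPM, the libraries of all groups lay in a band from 17.1 to 31.3. The log2 fold changes were 0.23 ± 0.66 for FLAG over IgG with IL-17 and 0.17 ± 0.67 for IL-17 over medium in FLAG, and the IL-17 value was -0.55 without FLAG medium replicate 3.

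The inhibitory TRAF genes were among the best covered of the set. TRAF3 had 29.1, 32.5 and 33.0 TMM-scaled CPM in FLAG IL-17, against 29.6, 21.1 and 40.4 in IgG IL-17. It had 38.3, 47.8 and 21.2 in FLAG medium, against 10.6, 19.7 and 47.4 in IgG medium. The groups overlapped in all comparisons, and the log2 fold change of FLAG over IgG was 0.05 ± 0.56 with IL-17 and 0.41 ± 0.57 in medium, not called by edgeR.

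TRAF4 had 27.5, 33.6 and 34.3 TMM-scaled CPM in FLAG IL-17, against 18.6, 33.2 and 47.8 in IgG IL-17. It had 13.0, 20.4 and 15.9 in FLAG medium, against 93.3, 12.6 and 20.5 in IgG medium. FLAG IL-17 lay above FLAG medium in every library on this scale, as for 17.3% of all features. The extreme value was once more IgG medium replicate 1, with 44 counts and 58.9 CPM before TMM scaling (95% Poisson interval 42.8 to 79.1). The log2 fold change of IL-17 over medium was 0.94 ± 0.63 in FLAG (edgeR, n = 3 each, adjusted p = 0.502) and -0.24 in IgG. Without IgG medium replicate 1 the value in IgG was 0.96, so its direction rested on that library. The log2 fold change of FLAG over IgG in medium was -1.25 ± 0.65 with all libraries (edgeR, n = 3 each, adjusted p = 0.782) and -0.05 without IgG medium replicate 1.

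Per length, the order of the 9 transcripts by group mean had TRAF4 first and IL17RD last in all 4 groups. TRAF4 averaged 2.09 ± 0.607 TPM in FLAG IL-17, 2.21 ± 1.02 in IgG IL-17, 4.04 ± 1.86 in FLAG medium and 4.73 ± 2.71 in IgG medium (SD, n = 3 each). IL17RD averaged 0.0767 ± 0.0569, 0.127 ± 0.0379, 0.297 ± 0.10 and 0.0967 ± 0.167 TPM in those groups in the same order. In each group all 8 pairs of neighbours in this order overlapped in their ranges over libraries, those at both ends included. Such ranges do not compare genes within a library. In every FLAG IL-17 library TRAF4 was above TRAF2, its neighbour, and IL17RD was below TRAF6, its neighbour. In every IgG IL-17 library IL17RD was below IL17RC, its neighbour. The steps at the top in IgG IL-17 and at both ends in the medium groups did not hold in every library. Among the 24040 tested features, the mean TPM of TRAF4 stood at percentile 82.8 and that of IL17RD at percentile 13.5. The TPM of TRAF5 averaged 1.07 ± 0.563 in FLAG IL-17, 1.357 ± 1.45 in IgG IL-17, 2.90 ± 2.33 in FLAG medium and 3.70 ± 4.02 in IgG medium. TRAF2 averaged 1.32 ± 0.744, 2.13 ± 0.640, 1.41 ± 0.681 and 2.17 ± 1.74 TPM in the same 4 groups. IL17RA averaged 0.340 ± 0.212 TPM in FLAG IL-17, 0.317 ± 0.156 in IgG IL-17, 2.71 ± 1.91 in FLAG medium and 1.08 ± 0.881 in IgG medium. Its libraries with IL-17, at 0.15 to 0.58 TPM, lay below all 3 FLAG medium libraries, but not below IgG medium replicate 1, listed at 0.07 TPM from 5 counts.

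**Figure D2:**
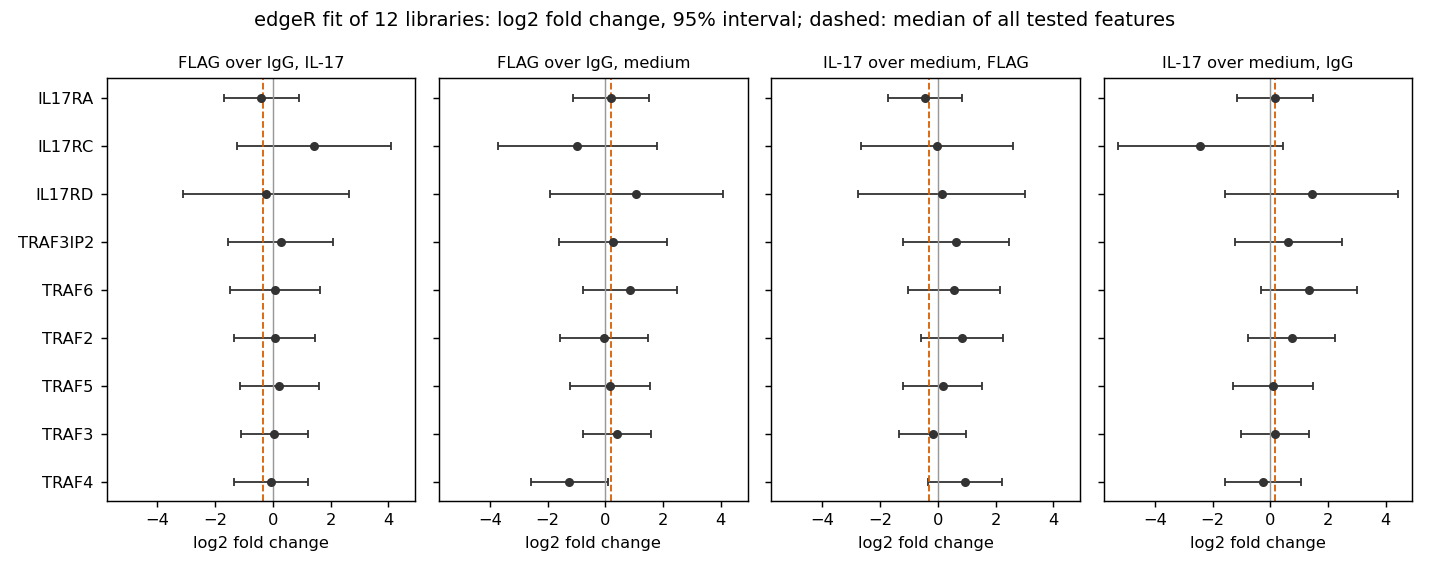
Log2 fold changes of the 9 genes with 95% intervals from the edgeR model of 12 libraries. Panels show FLAG over IgG with IL-17 and in medium, and IL-17 over medium in FLAG and in IgG. The change of enrichment is not drawn. Every interval crosses 0, and the intervals of IL17RC and IL17RD are the widest in each comparison.

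The first comparison asked which transcripts were recovered with Arid5a after IL-17, FLAG IL-17 over IgG IL-17. In the model of 12 libraries 0 of the 9 genes were called at an adjusted p under 0.05 by edgeR's quasi-likelihood test with Benjamini-Hochberg adjustment. Of all features 0% were called. At an unadjusted p under 0.05 there were again 0 of the 9 genes and 2.81% of all features. The log2 fold changes of the 9 genes ran from -0.40 for IL17RA to 1.42 ± 1.304 for IL17RC, with a median of 0.07, beside a median of -0.33 over all features. TRAF6 and TRAF2 had 0.07 ± 0.76 and 0.07 ± 0.68, and TRAF4 had -0.06 ± 0.62. Libraries of the groups did not overlap, FLAG IL-17 being higher, for IL17RC alone of the 9 genes and for 14.6% of all features. FLAG IL-17 was lower without overlap for 0 of the 9 and 12.3% of all features. For the higher direction on CPM without TMM factors it was again IL17RC alone, beside 3.58% of all features, and on TPM 0 of the 9, beside 0.341%.

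The common dispersion of the 12-library model was 0.953, estimated over all 4 groups. A fit of the 6 IL-17 libraries alone, chosen after the data were seen, gave narrower intervals. In it IL17RC had a log2 fold change of 1.31 ± 0.60 with a 95% interval of 0.000869 to 2.62. Its unadjusted p was 0.0499 and its adjusted p 0.222 by edgeR's test, short of the threshold. It was the 1 gene of the 9 under an unadjusted p of 0.05, beside 22.5% of the 19349 features in that fit. IL17RA had -0.50 (95% interval -1.05 to 0.05). The other 7 genes lay between -0.36 for IL17RD and 0.13 for TRAF3IP2. For TRAF6 the interval was -0.58 to 0.52, for TRAF2 -0.62 to 0.58, for TRAF5 -0.40 to 0.61, for TRAF3 -0.58 to 0.48 and for TRAF4 -0.74 to 0.45.

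**Figure D3:**
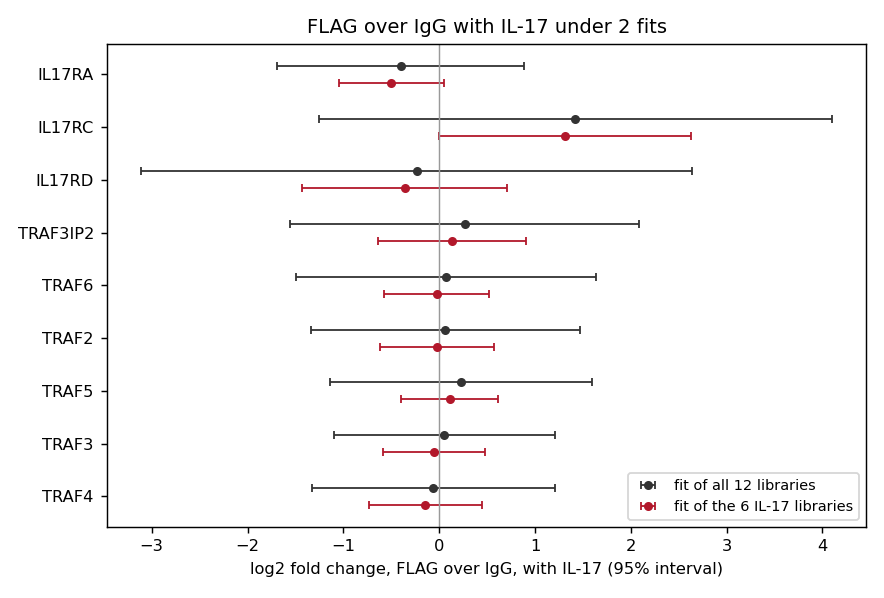
Log2 fold change of FLAG IL-17 over IgG IL-17 with 95% intervals for each of the 9 genes, from the fit of 12 libraries and from the fit of the 6 IL-17 libraries alone. The interval of IL17RC runs from 0.000869 to 2.62 in the fit of 6 libraries, and the intervals of the other 8 genes cross 0 in both fits.

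The second comparison set FLAG medium over IgG medium, the same question without IL-17. In it 0 of the 9 genes were called by edgeR, beside 0% of all features, and 0 of the 9 passed an unadjusted p under 0.05, beside 6.56% of all features. Log2 fold changes ran from -1.25 for TRAF4 to 1.08 for IL17RD, with a median of 0.21 beside 0.20 over all features. TRAF6 had 0.85 ± 0.80 and TRAF5 0.15 ± 0.67. Single libraries moved these values: TRAF3IP2 had 1.39 without IgG medium replicate 2 and -0.19 without replicate 1, and TRAF5 had -0.39 without replicate 1. TRAF6 had 1.64 and IL17RA 1.24 without IgG medium replicate 2, while IL17RA had -0.29 without FLAG medium replicate 3. TRAF3 had 1.13 without IgG medium replicate 3 and 0.02 without replicate 1. FLAG medium was higher without overlap for 0 of the 9 genes and 5.07% of all features, and lower for 0 of the 9 and 1.11%. With the 4 libraries named at the start left out, the lone IgG medium library was taken to vary as the other groups did, and TRAF2 was called at 2.19 (edgeR, adjusted p = 0.0271), 1 of the 9 genes beside 4.28% of all 28872 features fitted. In that fit the median over all features was 1.60, so most features were higher in FLAG medium. The difference between the 2 enrichments was tested as an interaction. Here 0 of the 9 genes were called, beside 0% of all features, and 0 of the 9 had an unadjusted p under 0.05, beside 7.35%. Its values ran from -1.31 for IL17RD to 2.39 ± 1.87 for IL17RC, with a smallest adjusted p of 0.774 by edgeR. TRAF4 had 1.19 ± 0.89, TRAF6 -0.78 ± 1.10, IL17RA -0.61 ± 0.90 and TRAF3 -0.35 ± 0.80, while TRAF3IP2 and TRAF5 had 0.01 ± 1.25 and 0.08 ± 0.95. Without IgG medium replicate 1 the value of TRAF4 was 0.06. For IL17RC the sign rested on IgG medium replicate 1, since the value was -0.59 without it. TRAF2 had 0.10 ± 1.01 from all libraries and -1.11 without IgG medium replicate 1. With each library left out in turn its value ran from -1.11 to 0.60, so it had no settled direction. The median over the 9 genes was 0.01, beside -0.52 over all features.

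The effect of IL-17 in FLAG precipitates, FLAG IL-17 over FLAG medium, gave 0 called genes of the 9 by edgeR, beside 0.225% of all features. It gave 0 of the 9 at an unadjusted p under 0.05, beside 10.9% of all features. IL17RC had -0.04 ± 1.28, IL17RD 0.13 ± 1.41 and TRAF3 -0.18 ± 0.56 as log2 fold changes. Without FLAG medium replicate 3, IL17RC had -1.21, IL17RD -1.004, TRAF3 -0.97, TRAF6 -0.01 and TRAF4 0.44. Without FLAG medium replicate 1, IL17RC had 1.16 and IL17RD 0.80. TRAF3IP2, TRAF6, TRAF2 and TRAF4 were higher in FLAG IL-17 without overlap on TMM-scaled CPM, 4 of the 9 genes beside 17.3% of all features, and 0 were lower, beside 11%. That direction depended on the scale. On CPM without TMM factors 0 of the 9 were higher, beside 3.29%, and IL17RA alone was lower, beside 15.7%. On TPM 0 of the 9 were higher, beside 0.749%, and IL17RA, IL17RD and TRAF3 were lower, beside 24.6%. Relative to all features, the median log2 fold change of the 9 genes was 0.17 against -0.29 with TMM factors, -0.49 against -0.92 with library size only and -1.19 against -1.09 on log2(TPM + 0.1). It was -0.64 against -0.45 on log2(TPM + 1), and -0.08 against -0.03 in a fit of the 6 FLAG libraries alone. That fit, also chosen after the data were seen, gave TRAF4 a log2 fold change of 0.74 ± 0.31 (95% interval 0.04 to 1.44). Its unadjusted p was 0.0404 and its adjusted p 0.224 by edgeR's test, and TRAF4 was the 1 gene of the 9 under an unadjusted p of 0.05, beside 20.5% of the 17639 features fitted.

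**Figure D4:**
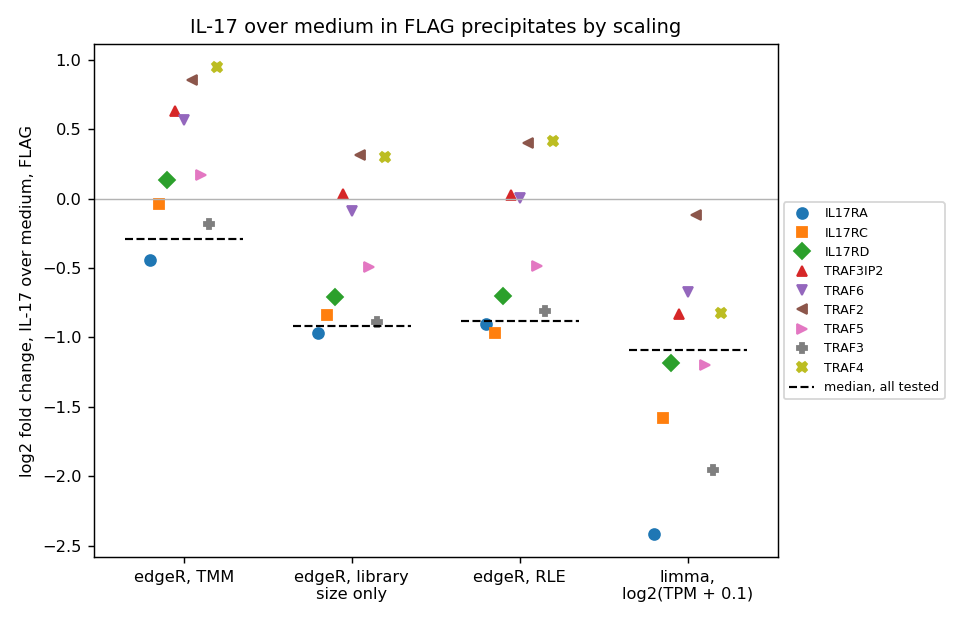
Log2 fold change of FLAG IL-17 over FLAG medium for each of the 9 genes (points), with the median of all tested features (dashed lines). The settings are edgeR with TMM factors, library size only or relative log expression factors, and limma on log2(TPM + 0.1). The median of the 9 genes, which is not drawn, is 0.17 with TMM factors and -1.19 on log2(TPM + 0.1). That of all features is -0.29 and -1.09.

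In the IgG control precipitates, IgG IL-17 over IgG medium, 0 of the 9 genes were called by edgeR, beside 0.0125% of all features. At an unadjusted p under 0.05 there were 0 of the 9, beside 5.57%. TRAF6 alone was higher in IgG IL-17 without overlap on TMM-scaled CPM, beside 9.69% of all features, and 0 were lower, beside 1.93%. On CPM without TMM factors 0 of the 9 were higher, beside 7.21%, and on TPM 0 of the 9, beside 2.2%. IL17RC had the most negative value, -2.42 ± 1.39 (edgeR, n = 3 each, adjusted p = 0.927), which was 0.71 without IgG medium replicate 1. IL17RD had 1.44 ± 1.46, TRAF2 0.75 ± 0.73 and TRAF3IP2 0.62 ± 0.90, while IL17RA, TRAF3 and TRAF5 lay at 0.16, 0.17 and 0.09. The median of the 9 genes was 0.17, beside 0.18 over all features. Without IgG medium replicate 1, TRAF2 had 2.03, TRAF3IP2 0.15, TRAF3 -0.22 and TRAF5 -0.45. Without IgG medium replicate 2, TRAF6 had 2.06, TRAF3IP2 1.69 and IL17RA 1.15. The other IgG medium libraries were at 0 for IL17RD. The pooled IL17RD level in IgG IL-17 was 4.76 CPM, 7.21 times the limit of 3 counts over them. It was below the 7.19 CPM of IgG medium replicate 2, and pooling leaves out the spread between libraries. Without IgG medium replicate 3, TRAF2 had 0.20, IL17RD 0.68, TRAF3 0.81 and IL17RA -0.29. With the same 4 libraries left out, TRAF2 was called at 2.91 (edgeR, adjusted p = 0.00374), 1 of the 9 genes beside 5.65% of all features, in a fit where the median over all features was 2.17.

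On the TMM scale the median spread between replicates was smallest in FLAG IL-17. The median SD of log2(TMM-scaled CPM + 1) over the 9 genes was 0.120 in FLAG IL-17, 0.393 in IgG IL-17, 0.586 in FLAG medium and 1.49 in IgG medium. Over all tested features it was 0.240, 0.583, 0.955 and 1.27 in those groups. The median of the 9 genes was thus below that of all features in 3 groups and above it in IgG medium. Depth moved with this spread, the FLAG IL-17 libraries being the deepest as a group, and its part in the spread was not tested. On TPM the SD of IL17RA, IL17RD, TRAF6 and TRAF2 was larger in FLAG IL-17 than in IgG IL-17. For IL17RD it was 0.0569 against 0.0379 and for TRAF2 0.744 against 0.640. The SD of the other genes was smaller in FLAG IL-17.

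Counts and TPM of these genes did not keep 1 ratio between libraries. Summed over the 9 genes, 1 CPM corresponded to 0.0384 to 0.0676 TPM in the 6 libraries with IL-17, against 0.0358 in IgG medium replicate 1 and 0.0921 to 0.160 in the other 5 medium libraries. Since TPM divides each count by an effective transcript length, count over TPM relative to the median feature of a library gives an apparent length. It was examined in libraries with at least 20 counts and 0.2 TPM. For TRAF3IP2 it varied 9.45-fold, from 0.171 in IgG medium replicate 3 to 1.62 in IgG medium replicate 2. IL17RA varied 7.30-fold, TRAF4 5.57-fold and the other 6 genes by 1.77-fold to 3.46-fold. The libraries behind these folds numbered 11 for TRAF3IP2, 9 for IL17RA and 12 for TRAF4, but 3 for IL17RD, which had the smallest fold, and 4 for IL17RC. Thus 20 counts of TRAF3IP2 gave 3.35 TPM in IgG medium replicate 3, while 105 counts gave 1.80 TPM in IgG medium replicate 2. The limit of 0.2 TPM also left out libraries with many counts, such as IL17RA at 148 counts and 0.15 TPM in IgG IL-17 replicate 2. Such libraries have long apparent lengths, so the folds hold within the filter and could be larger without it.

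Across the 12 libraries, likeness of pattern was described as Pearson's r of log2(CPM + 1) among the 9 genes. TRAF3IP2 was most like TRAF5, with r = 0.907, and then TRAF6, with r = 0.868. TRAF6 was most like TRAF3IP2 and then IL17RD, with r = 0.858, and IL17RA was most like TRAF3IP2, with r = 0.690. These points share the libraries' depth and composition. IgG medium replicate 1, at 0 or 1 count for TRAF3IP2, TRAF5, IL17RD and TRAF6, enters every value.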

How the data were processed

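The deposited tables hold, per the submitters' processing notes, values made with STAR 2.7.9 and RSEM 1.3.1 on GRCh38, with DESeq2 1.36.0 and R 4.2.0 also listed. Which tool made which value is not stated there. The authors' estimated counts were rounded to whole numbers, although the counts of the 9 genes were already whole. The other deposited table, named for FPKM, was read as TPM because its columns share 1 fixed sum, as TPM columns do.

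The sample titles gave the groups and replicate numbers. After filterByExpr (minimum count 10) and TMM scaling, the quasi-likelihood test was run in edgeR 4.0.16 under R 4.3.3, with Benjamini-Hochberg adjustment over 24040 features. Standard errors are the log2 fold change over the square root of F. Code was tested on simulated data. Alternatives used relative log expression (RLE) factors, library size only, no filter, the replicate block, DESeq2 1.42.0, limma 3.58.1 on TPM logged with a pseudocount of 1 or 0.1, left-out libraries and the 6 libraries compared. The 9 genes are named in every comparison of the 12-library model. The members and lists were chosen with earlier results of these data known. Gene lists of the wider pathway and cell type markers are not analysed here, because 0 identifiers could be matched to symbols. Intervals on counts cover counting error only.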

Additional observations from a re-analysis of the deposited data

How the results depend on the processing

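The number of the 9 genes called was 0 in each comparison and alternative run except 1 alternative. The fit of the 6 libraries compared was not run for the change of enrichment, and for IL-17 over medium in IgG it held 8 genes, without IL17RC. Without the 4 libraries that stood apart the number was 1 for FLAG over IgG in medium and 1 for IL-17 over medium in IgG, TRAF2 in both, beside 4.28% and 5.65% of all features. That fit has 1 IgG medium library, taken to vary as the other groups did, and moved the median over all features to 1.60 and 2.17; the cause was not tested. A sign change of an uncalled value within 1 standard error was not counted as a reversal; 38 of the 200 sign changes among 935 recomputed values were larger or called. Without those 4 libraries the reversed values were, for FLAG over IgG in medium, IL17RC 0.71, TRAF2 2.19 and TRAF3 -0.30; for IL-17 over medium in IgG, IL17RC 0.40, TRAF3 -0.50 and TRAF4 1.11; and for the change of enrichment, TRAF2 -2.36 and TRAF4 -0.31. On log2(TPM + 1) they were IL17RC 0.49 for FLAG over IgG in medium; TRAF3IP2 -0.43, TRAF6 -0.28, TRAF2 -0.066, TRAF5 -0.79 and TRAF4 -0.64 for IL-17 over medium in FLAG; IL17RA -0.56, TRAF3IP2 -0.48, TRAF6 -0.22, TRAF5 -0.66 and TRAF3 -0.40 in IgG; and IL17RC -0.41 for the change. On log2(TPM + 0.1) they were IL17RC 0.87 for FLAG over IgG in medium and TRAF2 -0.73 with IL-17; TRAF3IP2 -0.83, TRAF6 -0.67, TRAF2 -0.12, TRAF5 -1.20 and TRAF4 -0.83 for IL-17 over medium in FLAG; IL17RA -0.99, TRAF3IP2 -0.36 and TRAF6 -0.21 in IgG; and IL17RC -0.55 for the change. Leaving out each library in turn gave -2.14 to 2.10 for IL17RC and -0.53 to 1.26 for TRAF2 (FLAG over IgG in medium), -0.55 to 0.28 for TRAF5 (IL-17 over medium in FLAG), -2.99 to 0.71 for IL17RC and -0.66 to 0.96 for TRAF4 (IL-17 over medium in IgG), and -0.59 to 3.54 for IL17RC and -1.11 to 0.60 for TRAF2 (change of enrichment). With the replicate block 0 of the 9 genes were called in each comparison, the smallest adjusted p by edgeR being 0.480; same-numbered libraries correlated at -0.140 to 0.468 over 18 pairs, 9 of them over 0.1. All 6 pairs of number 3 were over 0.1 (0.213 to 0.392), against 2 of number 1 and 1 of number 2, and 7 of the 12 libraries were closest to one of their own number. Since not every pair exceeded 0.1, the numbers were not taken to pair samples. A count of 0 in IgG medium replicate 1 cannot show levels under 4.02 CPM.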
